A study of Mus musculus with 24 samples.

Results

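The genes described here encode the motor proteins of the cytoskeleton and their core subunits, that is kinesins, dyneins with dynactin, and myosins. They were taken from the deposited gene table by symbol, as Kif followed by a digit or the letter c, Dync, Dynl, Dnah with a digit, Dctn1 to Dctn6, and Myo or Myh with a digit. This gave 80 of the 12611 genes in the table, namely 37 Kif genes, 22 dynein and dynactin genes and 21 myosin heavy chain genes. Kif1bp matches by symbol but encodes a protein that binds kinesins and is no motor itself. A list of 13 kinesins that act in the spindle and in cytokinesis is called mitotic kinesins below. It was kept apart from 16 transport kinesins and 8 other Kif genes. The list need not hold every kinesin with a part in cell division, and Kif2a, a microtubule depolymerase, is among the 8 other Kif genes.

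RNA was measured in lens fiber and lens epithelium of CD1 mice, an outbred stock for which the labels name no mutant allele and no treatment. Both tissues were taken by microdissection from embryos at E14.5, from embryos at E16.5, from embryos at E18.5 and from newborns at P0.5 (days of embryonic and postnatal life). Each tissue and stage had 3 biological replicates, which makes 12 fiber and 12 epithelium libraries of total RNA. The labels do not say whether a replicate pools animals, so the p-values measure the spread between these libraries.

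Kinesins and dyneins walk along microtubules and carry vesicles, organelles and protein complexes. Most kinesins move toward the growing plus end, and cytoplasmic dynein, with its activator dynactin, moves toward the minus end. A subset of kinesins works during cell division, where it builds the spindle, moves chromosomes and closes the midzone at cytokinesis. Myosins move along actin filaments, myosin II by forming contractile filaments and the unconventional myosins by carrying membranes or tethering them. In the lens, epithelial cells divide, leave the cell cycle near the equator and elongate into fibers, which later lose their organelles.

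Total counts were 13010174 to 21617737 in fiber libraries and 7658794 to 11819117 in epithelium libraries. Crystallin genes took 23.3% to 43.9% of the counts in fiber libraries and 1.66% to 4.28% in epithelium libraries, and the motor genes together took 0.418% to 0.697% and 0.76% to 0.859% of the counts in fiber and in epithelium. Replicate 2 of E18.5 fiber stood apart with 28.9% of its counts on Rn45s, the ribosomal RNA precursor, against 3.98% to 16.3% in the other fiber libraries. All 6 markers of lens fibers were higher in fiber, and all 4 markers of lens epithelium were lower in fiber. Markers of other cells were in the libraries as well. The 8 endothelium markers summed to 10.6 to 37.6 CPM (counts relative to library size, scaled by TMM) in fiber and to 237 to 441 CPM in epithelium. The 5 mural cell markers summed to 4.39 to 23.5 CPM in fiber and to 82.0 to 312 CPM in epithelium. From E14.5 to P0.5 the 8 neuron markers had mean sums of 19.6, 31.0, 27.5 and 30.5 CPM in fiber. In epithelium these sums were 10.6, 13.2, 52.1 and 39.4 CPM. The 7 retina markers had mean sums of 111, 150, 161 and 175 CPM in fiber. In epithelium they were 121, 144, 258 and 251 CPM. The part of such cells in the motor gene values was not tested. In such bulk samples, fewer cells of a type and less RNA per cell cannot be told apart.

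Because the mitotic kinesins moved together between fiber and epithelium, the start regions of several of them are shown here, with that of Kif1a, the most abundant motor gene of the fiber per kilobase, for contrast. The sequences are from RefSeq on GRCm38.p6, 5′ to 3′ on the gene's strand, from 70 bases before to 30 bases after the annotated start. Capitals mark the letters TTTGAA on either strand, the core of the cell cycle genes homology region of many promoters. They also mark CCAAT on either strand, the site known for binding NF-Y. Kif11 lies at chr19:37376312-37376411 (plus strand), Kif15 at chr9:122951011-122951110 (plus strand) and Kif18b at chr11:102925095-102925194 (minus strand). Kif20b lies at chr19:34922288-34922387 (plus strand), Kif22 at chr7:127042391-127042490 (minus strand) and Kif23 at chr9:61946770-61946869 (minus strand). The Kif1a window is chr1:93101845-93101944 (minus strand).
Kif11: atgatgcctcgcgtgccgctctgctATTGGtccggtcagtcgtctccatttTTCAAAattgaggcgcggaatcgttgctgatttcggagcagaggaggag
Kif15: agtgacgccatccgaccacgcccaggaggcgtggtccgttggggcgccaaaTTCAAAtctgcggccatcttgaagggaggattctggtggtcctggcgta
Kif18b: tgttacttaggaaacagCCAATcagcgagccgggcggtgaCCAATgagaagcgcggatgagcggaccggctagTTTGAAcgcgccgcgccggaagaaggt
Kif20b: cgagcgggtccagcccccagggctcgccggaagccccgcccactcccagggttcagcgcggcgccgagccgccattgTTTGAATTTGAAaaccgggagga
Kif22: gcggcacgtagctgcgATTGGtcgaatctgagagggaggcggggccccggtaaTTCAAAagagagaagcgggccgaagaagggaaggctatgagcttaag
Kif23: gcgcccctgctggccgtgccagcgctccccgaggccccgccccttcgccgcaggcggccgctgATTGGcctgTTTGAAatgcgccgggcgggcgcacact
Kif1a: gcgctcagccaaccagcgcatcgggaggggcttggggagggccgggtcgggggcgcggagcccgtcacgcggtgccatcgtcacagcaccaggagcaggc
These 6 mitotic kinesins were printed because they carry TTTGAA within 50 bases of a RefSeq start that lies within 51 bases of the GENCODE start. Kifc1 and Kifc5b do so too, but their windows are near copies of each other.

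RefSeq start windows of 300 bases (250 before and 50 after the start) were used for 12 of the 13 mitotic kinesins. Windows of motor genes on chromosome 18, where Kif20a lies, were left out, while the set of all windows was not filtered by chromosome. TTTGAA on either strand was in 11 of these 12 windows (91.7%), against 17.9% of all 32851 windows. It lay within 50 bases of the start in 9 of the 12 (75%), against 4.94% of all windows. CCAAT on either strand was in 8 of the 12 (66.7%), against 37.4% of all windows, and 7 of the 12 (58.3%) had both CCAAT and a TTTGAA within 50 bases of the start, against 2.08%. Among the other motor genes 49 of 67 had a window in use, and 11.7% of their 60 windows held TTTGAA. The Kif1a window shown holds neither motif, while a window at another RefSeq start of Kif1a holds TTTGAA. The RefSeq starts of Kif2c, Kif14 and Kif4 lie 3867, 1505 and 328 bases from the GENCODE start, and their windows are in the counts above. The near copies Kifc1 and Kifc5b are counted there as separate windows. These are matches of letters, and binding was not measured.

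Fiber and epithelium differed in most motor genes. A gene passed the test, and is said to have risen, fallen or changed, at an adjusted p under 0.05 and at least a 2-fold difference in edgeR's quasi-likelihood test over the 12427 genes tested. Of the 80 motor genes 79 were tested, and Dynlt1c, a dynein light chain, had no count in any library. Averaged over the 4 stages, 25 motor genes were higher in fiber, where 15.7% of all tested genes were higher, and 29 were lower, where 22.2% of all tested genes were lower. The median log2 difference of the motor genes was 0.18, against -0.03 over all tested genes. Of the 29 lower genes 13 were mitotic kinesins, and without those 25 were higher and 16 lower. Fiber and epithelium values of all 12 libraries each did not overlap for 59 of the 80 motor genes, against 49.1% of all tested genes. Without the mitotic kinesins this held for 46 of 67. These motor gene totals include Dynlt1c, which was not tested.

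The split depends on scaling. Libraries were scaled with TMM, which sets the bulk of genes equal between samples. With plain library size the median of all tested genes shifted to -1.23, and 9 motor genes were higher and 40 lower in fiber. With the crystallins left out of the library size that median was -0.70, and 14 were higher and 33 lower. Shares of all tested genes are given for TMM scaling only, so these counts cannot be set against one. The 9 genes higher in fiber on average even with plain library size were Kif1a, Kifc3, Kif26b, Dync1i1, Myh7b, Myh15, Myo7b, Myo18b and Myo1h. Not all of them passed at each stage on that scale. Kif26b did not at E18.5 (log2 0.28) and P0.5 (-0.07), nor did Kifc3 (0.78) and Myo1h (0.90) at E14.5. Leaving out replicate 2 of E18.5 fiber gave 24 higher and 29 lower.

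**Figure D1:**
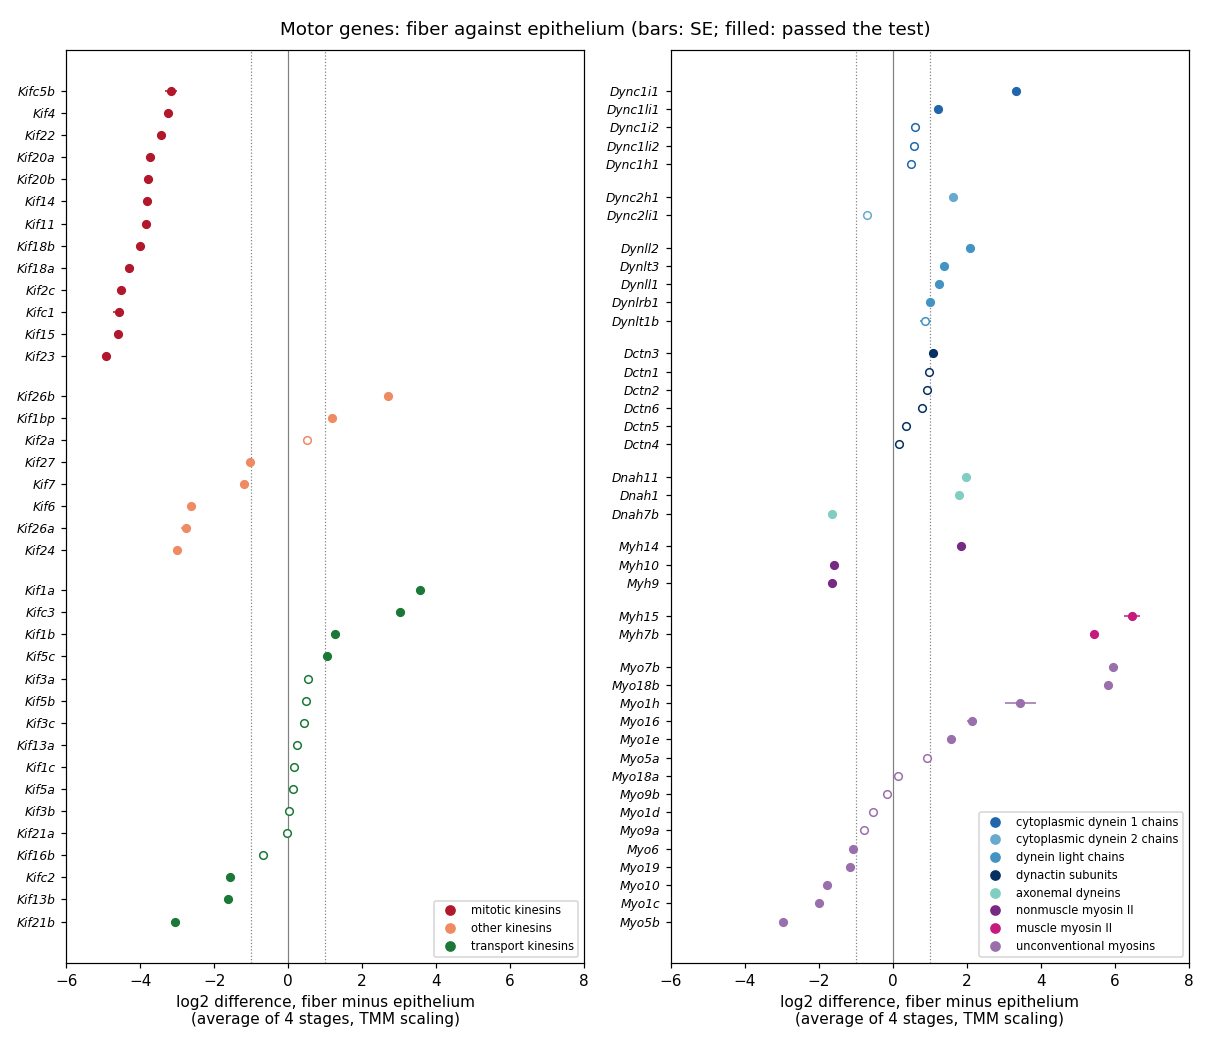
Log2 difference of fiber minus epithelium for the tested motor genes, with 1 gene not shown, averaged over 4 stages with TMM scaling. Bars are standard errors, filled points passed the test, and dotted lines mark a 2-fold difference. The 13 mitotic kinesins lie between -4.93 and -3.16, and the myosins reach 6.47.

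Motor genes passed in both directions at each stage. At E14.5 20 motor genes were higher in fiber (14% of all tested genes) and 26 lower (19.4%). At E16.5 26 were higher (14.6%) and 27 lower (20.4%). At E18.5 27 were higher (17.4%) and 30 lower (24.2%), and at P0.5 25 were higher (17.5%) and 31 lower (24.5%). At all 4 stages 17 motor genes were higher in fiber (10.4% of all tested genes) and 25 were lower (16.3%), and 19 of the 79 tested passed at no stage, as did 50.9% of all tested genes. Dctn1, Dctn2, Dync2li1, Dynlt1b, Myo5a and Myo9a did not pass on average but passed at some stages.

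All 13 mitotic kinesins were lower in fiber, on average and at each of the 4 stages, and the direction was the same under each scaling tried. Their median log2 difference was -3.85, against -0.03 over all tested genes, and their fiber and epithelium ranges did not overlap in any case. Summed over the 13 genes, E14.5 libraries held 34.3 to 53.2 CPM in fiber and 593 to 652 CPM in epithelium. E16.5 libraries held 19.4 to 23.2 CPM in fiber and 366 to 389 CPM in epithelium. E18.5 libraries held 17.8 to 19.1 CPM in fiber and 315 to 360 CPM in epithelium, and P0.5 libraries held 17.5 to 25.8 CPM in fiber and 251 to 288 CPM in epithelium. The lowest epithelium library stood above the highest fiber library at every stage.

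Kif23, a subunit of the centralspindlin complex needed for cytokinesis, differed most among the 13. It had a lowest value of 0.266, a median of 1.11 and a highest value of 4.31 CPM in the 12 fiber libraries, against 24.8, 40.2 and 65.8 CPM in the 12 epithelium libraries. Kif23 was thus 30.6-fold lower in fiber (log2 -4.93, SE 0.09, adjusted p = 5e-24, edgeR), and the highest fiber value was under the lowest epithelium value. Kif15, which helps to keep the spindle bipolar, had 0.315, 2.08 and 9.27 CPM in fiber as lowest, median and highest values, against 38.0, 55.4 and 103 CPM in epithelium. Kif15 was 24.2-fold lower in fiber (log2 -4.60, SE 0.10, adjusted p = 1.85e-22, edgeR). Kifc1, a minus-end motor that focuses spindle poles, was 24-fold lower (log2 -4.58, SE 0.14, adjusted p = 1.83e-19, edgeR), with fiber counts of 0 to 20 reads per library. Its reads may be shared with Kifc5b, a near-identical mouse copy, which was 8.96-fold lower in fiber.

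Kif11, the motor that pushes spindle poles apart, was the most abundant mitotic kinesin of the epithelium per kilobase of exon, at 0.616 CPM per kilobase in fiber and 9.0 CPM per kilobase in epithelium. Its values were 2.77, 4.06 and 8.01 CPM in fiber (lowest, median, highest) and 41.7, 60.4 and 105 CPM in epithelium. The difference was 14.4-fold (log2 -3.85, SE 0.07, adjusted p = 1.04e-23, edgeR). Kif2c, which takes microtubules apart at kinetochores, was 23-fold lower in fiber, and Kif18a and Kif18b, which act on microtubule ends in mitosis, were 19.7-fold and 16.2-fold lower. Kif14, Kif20a and Kif20b, all with roles in cytokinesis, were 14.1-fold, 13.4-fold and 13.9-fold lower. The chromosome-bound kinesins Kif22 and Kif4 were 10.8-fold and 9.56-fold lower. Kif18a, Kif20a and Kif4 each overlap a gene on the opposite strand (Mettl15, Cdc23 and Pdzd11), and since the strand setting of the counting is not given, their values could hold reads of those genes. The partners differed less between fiber and epithelium than the kinesins did, by log2 -0.57, -0.66 and 0.46.

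Of 10 partners of these kinesins in the spindle, 9 were lower in fiber, with a median log2 difference of -4.11 over the 10, against -0.03 over all tested genes. Aurkb, the kinase of the chromosomal passenger complex, differed by -4.71 (SE 0.10, adjusted p = 4.07e-23, edgeR), and Prc1, which bundles midzone microtubules, by -4.69. Racgap1, the partner of Kif23 in centralspindlin, did not pass at TMM scaling with a log2 difference of -0.95.

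**Figure D2:**
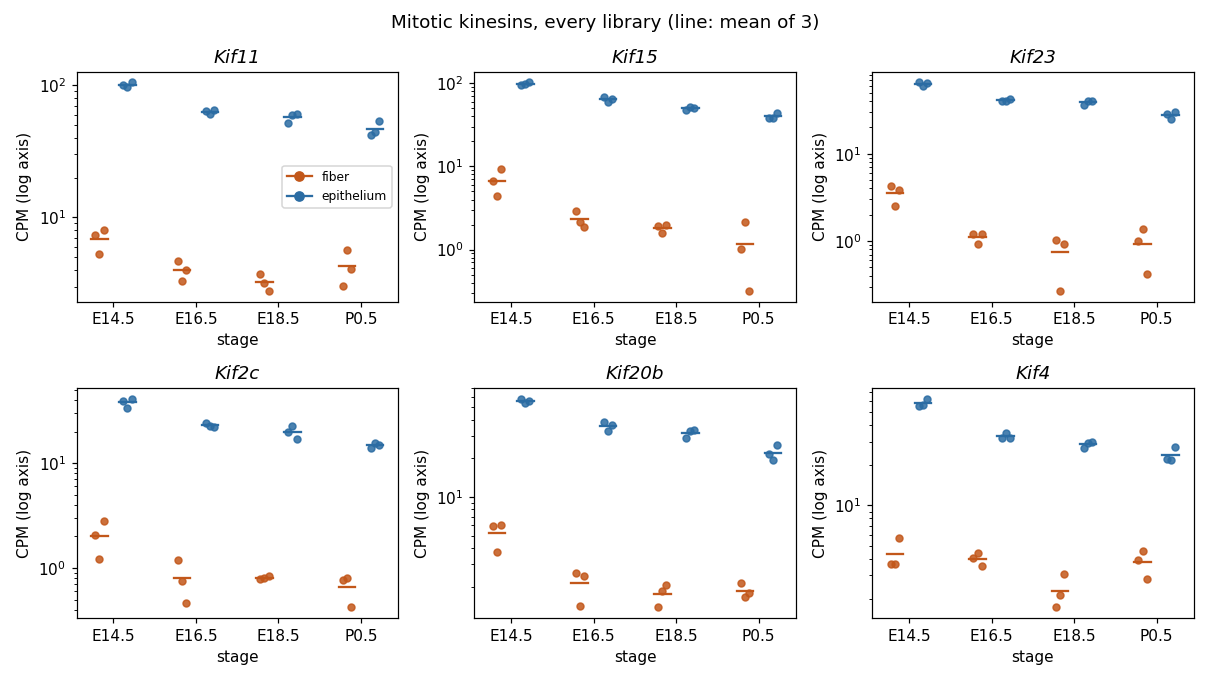
CPM of 6 mitotic kinesins in every library by stage, on log axes, with lines at the mean of 3 libraries. The fiber points lie under the epithelium points at each stage, as for Kif23 with at most 4.31 CPM in fiber and at least 24.8 CPM in epithelium.

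The 16 transport kinesins did not move as a block. Of these, 4 were higher in fiber (Kif1a, Kifc3, Kif1b and Kif5c), 3 were lower (Kif21b, Kif13b and Kifc2) and 9 did not pass, and with plain library size 2 were higher and 8 lower. Their median log2 difference was 0.20, against -0.03 over all tested genes. Kif1a, the motor that carries synaptic vesicle precursors in neurons, stood above all other motor genes of the fiber per kilobase of exon, at 160 CPM per kilobase. It held 42.3% of the transport kinesin level there on that scale. Lengths are unions of all annotated exons, so ranks on this scale depend on the annotation. In epithelium Kif1a had 13.7 CPM per kilobase, and Kif3a, a subunit of the heterotrimeric kinesin that serves cilia, led the transport kinesins with 31.1 CPM per kilobase.

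Kif1a had 1113, 1473 and 1949 CPM in fiber (lowest, median, highest) and 70.1, 129 and 180 CPM in epithelium. Every fiber library was above every epithelium library, by 11.9-fold on average (log2 3.57, SE 0.05, adjusted p = 1.32e-25, edgeR), and the call held under each scaling tried. Kifc3, a minus-end directed kinesin with its motor at the C terminus, had 7.25, 43.7 and 96.3 CPM in fiber against 2.58, 4.26 and 7.31 CPM in epithelium. It was 8.06-fold higher (log2 3.01, SE 0.09, adjusted p = 1e-19, edgeR), and the ranges overlapped at their edge, the lowest fiber value being an E14.5 library and the highest epithelium value an E18.5 library. Since the strand setting of the counting is not given, the Kifc3 values could hold reads of the opposite strand.

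Kif1b, which moves mitochondria and vesicle precursors, had 659, 714 and 783 CPM in fiber against 277, 296 and 316 CPM in epithelium, a 2.4-fold difference (log2 1.26, SE 0.03, adjusted p = 1.53e-22, edgeR). Among the heavy chains of conventional kinesin, Kif5c passed at 2.05-fold higher (log2 1.04), but its log2 value was -0.17 with plain library size. Kif5b (log2 0.48, SE 0.03) and Kif5a (log2 0.12, SE 0.11) did not pass, and with plain library size Kif5a passed as lower in fiber with a log2 value of -1.09. The Kif3 subunits had log2 values of 0.54 (Kif3a), 0.03 (Kif3b) and 0.44 (Kif3c, which overlaps 1110002L01Rik on the opposite strand).

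Kif21b, a kinesin best known from neurons, had the largest difference of the 3 lower ones. It had 1.89, 4.22 and 5.48 CPM in fiber against 21.63, 29.3 and 36.8 CPM in epithelium, with no overlap (8.31-fold lower, log2 -3.06, SE 0.07, adjusted p = 2e-22, edgeR). Its paralog Kif21a had 95.9, 128 and 154 CPM in fiber and 105, 127 and 157 CPM in epithelium, ranges that overlapped almost wholly (log2 -0.04, SE 0.04, adjusted p = 0.316, edgeR). The kinesin-3 motor Kif13b was 3.11-fold lower in fiber, and its paralog Kif13a did not pass (log2 0.23). Kifc2, a C-terminal kinesin at under 7 CPM in every library, was 2.95-fold lower and overlaps Cyhr1 on the opposite strand. Of 8 proteins that link kinesins to cargo, 4 were higher in fiber (median log2 0.99, against -0.03 over all tested genes). They were the scaffold genes Mapk8ip1 (log2 2.65, SE 0.04) and Mapk8ip3 (1.31), Trak1, an adaptor for mitochondria (1.66), and the light chain Klc1 (1.14). With plain library size 1 of these 8 genes was higher and 1 lower.

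Of the 8 other Kif genes, 2 were higher and 5 lower in fiber. Kif26b, an atypical kinesin known from kidney development, had 68.7, 121 and 176 CPM in fiber against 3.72, 22.3 and 64.3 CPM in epithelium (6.52-fold higher, log2 2.71, SE 0.07, adjusted p = 1.65e-21, edgeR). The ranges did not overlap, though the highest epithelium library came close to the lowest fiber library. Kif1bp was 2.26-fold higher (log2 1.17), a value of -0.04 with plain library size. Kif24, which restrains the assembly of cilia, was 7.99-fold lower (log2 -3.0, SE 0.09), and Kif26a was 6.79-fold lower. Kif6 was 6.18-fold lower. Kif7, a regulator of Hedgehog signalling at the cilium, was 2.31-fold lower in fiber and overlaps Ticrr on the opposite strand. Ticrr was lower in fiber as well (log2 -4.32), and its part in the Kif7 value was not tested. Kif27 was 2.07-fold lower (log2 -1.05), and -0.99 without P0.5 fiber replicate 2. Kif2a, a microtubule depolymerase, was the highest of the 8 per kilobase in both tissues and did not pass (log2 0.50).

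Of the 5 cytoplasmic dynein 1 chains, 2 were higher in fiber (Dync1i1 and Dync1li1) and 3 did not pass, with a median log2 difference of 0.59 that was -0.61 with plain library size. The heavy chain Dync1h1, the motor itself, had 739, 850 and 1024 CPM in fiber against 565, 605 and 687 CPM in epithelium. The ranges did not overlap, but the log2 difference of 0.49 (SE 0.03) did not reach 2-fold and was -0.72 with plain library size. Dync1i1, the intermediate chain best known from neurons, had 36.1, 79.3 and 128 CPM in fiber against 2.14, 6.59 and 20.4 CPM in epithelium (10.2-fold higher, log2 3.35, SE 0.10, adjusted p = 1.12e-19, edgeR). Dync1i2, the widely expressed intermediate chain, had 83.6, 94.3 and 99.8 CPM in fiber against 54.5, 62.6 and 65.9 CPM in epithelium, a log2 difference of 0.59. Per kilobase of exon the level of Dync1i1 was 21.9 CPM in fiber and 2.34 CPM in epithelium, and that of Dync1i2 was 11.3 CPM in fiber and 7.5 CPM in epithelium. In fiber the Dync1i1 level was close to that of Dync1i2 at E14.5, at 11 and 10.6 CPM per kilobase, and was higher later, at 30.9 against 11.3 CPM per kilobase at P0.5. These levels rest on annotated exon unions of 3572 bases for Dync1i1 and 8280 bases for Dync1i2. Without a length scale, Dync1i1 had 544, 446 and 476 reads in E14.5 fiber, against 1384, 895 and 1029 for Dync1i2. In P0.5 fiber Dync1i1 had 810, 1249 and 1223 reads, against 737, 1178 and 901. In epithelium Dync1i1 was below Dync1i2 at all 4 stages, at 0.875 to 4.43 CPM per kilobase against 7.12 to 7.88. Of the light intermediate chains, Dync1li1 was 2.36-fold higher in fiber (log2 1.24, SE 0.03), and Dync1li2 did not pass (log2 0.58).

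The small dynein subunits were higher in fiber in 4 of the 5 tested genes, with a median log2 difference of 1.26 (0.06 with plain library size). Dynll2, a light chain that also binds many proteins outside dynein, had 159, 297 and 393 CPM in fiber against 57.1, 69.1 and 78.8 CPM in epithelium (4.22-fold higher, log2 2.08, SE 0.05, adjusted p = 2.02e-22, edgeR). At 109 CPM per kilobase Dynll2 ranked next after Kif1a among the motor genes of the fiber. This rank depends on the annotated exons, whose union is 2736 bases for Dynll2. For Dynll1 the union is 3890 bases, its whole gene span, which lowers its level on this scale. Dynlt3 (2.6-fold), Dynll1 (2.4-fold) and Dynlrb1 (2.02-fold) were also higher. The Dynlrb1 value lay at the 2-fold line. It was -0.19 with plain library size, and the call was lost with RLE scaling (0.998) and by DESeq2 (0.999). The call was also lost in 6 of the fits that left out 1 library, in which its log2 value was as low as 0.98. The libraries left out were E14.5 epithelium replicate 2, E16.5 fiber replicate 1, E16.5 epithelium replicate 3, E18.5 fiber replicate 2, E18.5 epithelium replicate 1 and P0.5 epithelium replicate 1. Dynlt1b, which shares sequence with Dynlt1c, did not pass (log2 0.88, SE 0.15).

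Of the dynactin subunits, Dctn3 was 2.13-fold higher in fiber (log2 1.09, SE 0.05), with a value of -0.12 with plain library size. Dctn1, the subunit that contacts dynein and microtubules, had 142, 160 and 176 CPM in fiber against 74.0, 78.5 and 94.9 CPM in epithelium. The ranges did not overlap, and the log2 difference of 0.99 fell short of 2-fold. Dctn2 (0.93), Dctn6 (0.80), Dctn5 (0.37) and Dctn4 (0.18) did not pass either. Of 6 further dynactin components, 2 were higher in fiber, Actr1a, which forms the dynactin filament (log2 1.84, SE 0.03), and Actr10 (1.13). The median of the 6 was 0.61, and -0.60 with plain library size. Of 11 regulators and adaptors of dynein, 1 was higher and 5 were lower in fiber (median log2 -0.57, against -0.03 over all tested genes). Ndel1, which binds dynein with Lis1, was higher (log2 1.86), while its paralog Nde1 was lower (-2.16). Spdl1, an adaptor at kinetochores (-3.39), Ninl (-3.07), Nin (-1.81), which anchors microtubules at centrosomes, and Hook2 (-2.12) were lower too.

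Dynein motors of cilia went both ways. Dync2h1, the heavy chain of the dynein that returns cargo along cilia, had 397, 434 and 510 CPM in fiber against 121, 140 and 165 CPM in epithelium (3.09-fold higher, log2 1.63, SE 0.03, adjusted p = 2.81e-23, edgeR). Its light intermediate chain Dync2li1 did not pass, with a log2 value of -0.69. Of the axonemal heavy chains, which beat motile cilia, Dnah11 (3.92-fold) and Dnah1 (3.48-fold) were higher in fiber and Dnah7b was 3.13-fold lower. Dnah1 had 31.5, 39.1 and 48.4 CPM in fiber and 8.92, 11 and 13.7 CPM in epithelium, while Dnah7b had 3.97, 5.80 and 6.33 CPM in fiber and 12.1, 17.3 and 27.9 CPM in epithelium. Per kilobase all 3 were low, at 0.28 to 3.02 CPM in fiber and 0.369 to 0.904 CPM in epithelium. Dnah11 overlaps Cdca7l on the opposite strand, which had a log2 difference of 0.00. The 2 markers of multiciliated cells analysed here, Foxj1 and Rsph1, summed to 0.654 to 2.2 CPM in fiber and to 0.30 to 7.14 CPM in epithelium. Of 12 cilium genes, 1 was higher in fiber (Ift20, log2 1.16) and 2 were lower (Foxj1, -2.70, and Arl13b, -1.12).

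**Figure D3:**
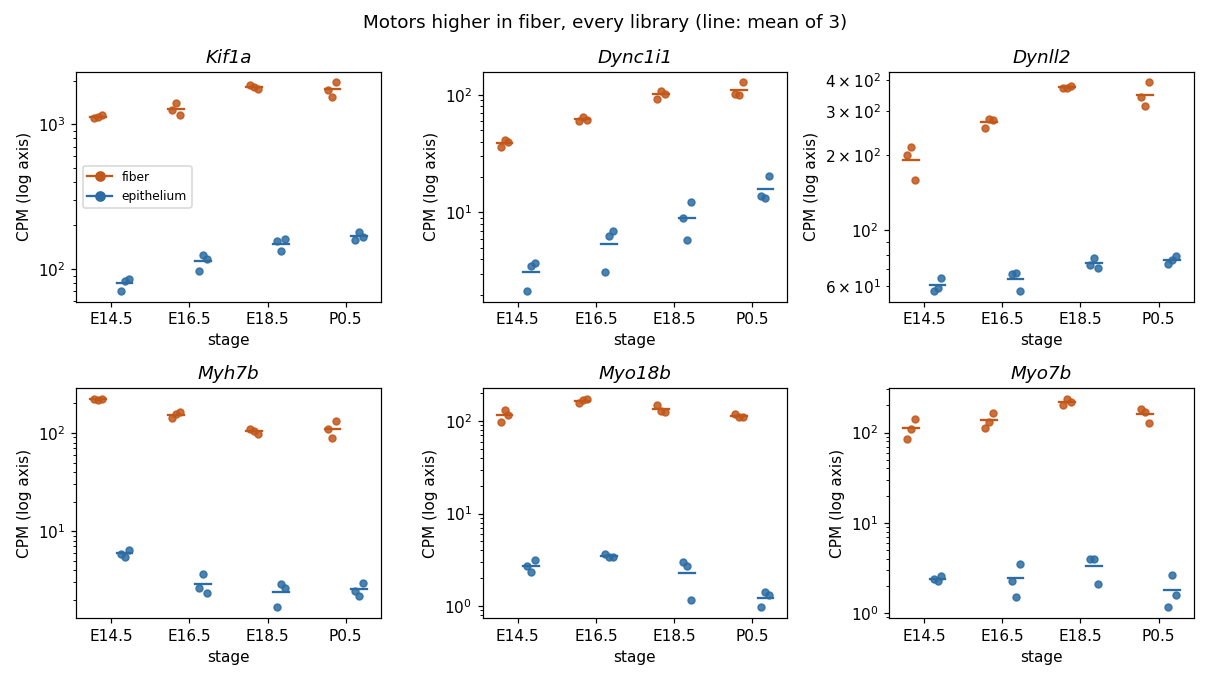
CPM of 6 motor genes higher in fiber, in every library by stage, on log axes, with lines at the mean of 3 libraries. Kif1a lies at 1113 to 1949 CPM in fiber and at 70.1 to 180 CPM in epithelium, and the fiber and epithelium points of all 6 genes stay apart.

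Among the myosins, the forms of myosin II divided between the tissues. The nonmuscle heavy chains Myh9 and Myh10, which form the contractile filaments of most cells, were lower in fiber. Myh9 had 105, 128 and 138 CPM in fiber against 343, 380 and 445 CPM in epithelium (3.12-fold lower, log2 -1.64, SE 0.03, adjusted p = 2.28e-23, edgeR). Myh10 had 63.0, 72.6 and 84.4 CPM in fiber against 181, 221 and 252 CPM in epithelium (3.02-fold lower, log2 -1.59, SE 0.03). Neither gene's ranges overlapped. Myh14, the third nonmuscle form, was 3.63-fold higher in fiber (log2 1.86, SE 0.08), but lay at 1.8 CPM per kilobase there, against 9.62 for Myh9 in the same tissue. The fall of Myh9 and Myh10 went along with lower sums of the 8 endothelium and 5 mural cell markers in fiber at each stage. The median log2 differences of these lists were -5.17 and -3.27. The part of such cells in the myosin values was not tested. Of 10 light chains and regulators of myosin II, 2 were higher in fiber (Myl6b, log2 1.33, and Myl12b, 1.14) and Myl9, a light chain of smooth muscle and nonmuscle cells, was lower (-2.75). With plain library size 5 of the 10 were lower.

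Both heavy chains of the sarcomeric family in the table were much higher in fiber. Myh7b, a relative of the slow and cardiac heavy chains, had 89.9, 136 and 225 CPM in fiber against 1.66, 2.76 and 6.48 CPM in epithelium (43.9-fold higher, log2 5.46, SE 0.07, adjusted p = 2.47e-26, edgeR). At 22.2 CPM per kilobase it lay above Myh9 in fiber. Myh7b overlaps Trpc4ap on the opposite strand, which averaged 74.9 CPM in fiber and 69.6 CPM in epithelium. Myh15, another member of that family, had 51 to 192 reads per fiber library and 0 to 5 reads per epithelium library, that is 1363 and 21 reads in all. Its log2 difference was 5.85 at E16.5 (SE 0.39, adjusted p = 1.75e-12, edgeR). Averaged over the stages it was 6.47, or 7.10 without E14.5 epithelium replicate 3, which held the only 2 reads of its group, so this average depends on how counts near 0 are modelled. Des, the only gene of the skeletal muscle list analysed here, stood at 0.798 to 2.28 CPM in fiber and 0.322 to 1.16 CPM in epithelium.

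Of the 16 unconventional myosins 6 were higher and 5 lower in fiber (median log2 -0.01, against -0.03 over all tested genes), with 3 higher and 9 lower under plain library size. Myo7b, known from the tips of brush border microvilli, had 84.6, 152 and 238 CPM in fiber against 1.16, 2.33 and 3.99 CPM in epithelium (62.3-fold higher, log2 5.96, SE 0.13, adjusted p = 6e-23, edgeR). Myo18b, which is needed for sarcomeres in muscle, had 98.8, 128 and 176 CPM in fiber against 0.967, 2.71 and 3.64 CPM in epithelium (57-fold higher, log2 5.83, SE 0.08, adjusted p = 1.73e-26, edgeR). For both genes the lowest fiber library was far above the highest epithelium library. Myo18a, the widely expressed paralog of Myo18b, had ranges of 106 to 166 CPM in fiber and 107 to 134 CPM in epithelium and did not pass (log2 0.14).

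Class I myosins, which link membranes to actin, moved apart from each other. Myo1e, found at endocytic sites, was 2.98-fold higher in fiber, while Myo1c was 4.0-fold lower (log2 -2.0, SE 0.07), and Myo1d did not pass (log2 -0.52). Myo1h was 11-fold higher on average (log2 3.45, SE 0.43, adjusted p = 6.26e-08, edgeR), with ranges of 1.12 to 72.3 CPM in fiber and 0.69 to 3.39 CPM in epithelium that overlapped. Myo16, an unconventional myosin best known from neurons, was 4.43-fold higher on average (log2 2.15, SE 0.14), again with overlapping ranges, of 4.92 to 25.7 CPM in fiber and 0.828 to 8.93 CPM in epithelium.

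Of the class V motors, Myo5b, which moves recycling endosomes with Rab11, had 13.9, 23.6 and 38.3 CPM in fiber against 131, 187 and 216 CPM in epithelium (7.74-fold lower, log2 -2.95, SE 0.06, adjusted p = 8.27e-24, edgeR). Myo5a, which carries melanosomes and other cargo, had 180 to 439 CPM in fiber and 126 to 186 CPM in epithelium, and its average log2 value of 0.92 did not pass. It was higher in fiber at E14.5 (log2 1.23, SE 0.05, adjusted p = 2.53e-16, edgeR) and at E16.5 (1.06), and did not pass at E18.5 (0.92) and P0.5 (0.47). Myo10, a motor of filopodia, was 3.41-fold lower in fiber. Myo6, which walks toward the minus end of actin and serves endocytosis, had 128, 141 and 149 CPM in fiber against 217, 305 and 372 CPM in epithelium (2.11-fold lower, log2 -1.08, SE 0.03). Myo19, a mitochondrial myosin, was 2.24-fold lower, and its locus overlaps Pigw and Znhit3 on the opposite strand. Myo9a (log2 -0.77) and Myo9b (-0.16), the class IX myosins, did not pass, and Myo9b overlaps Haus8 on the opposite strand.

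**Figure D4:**
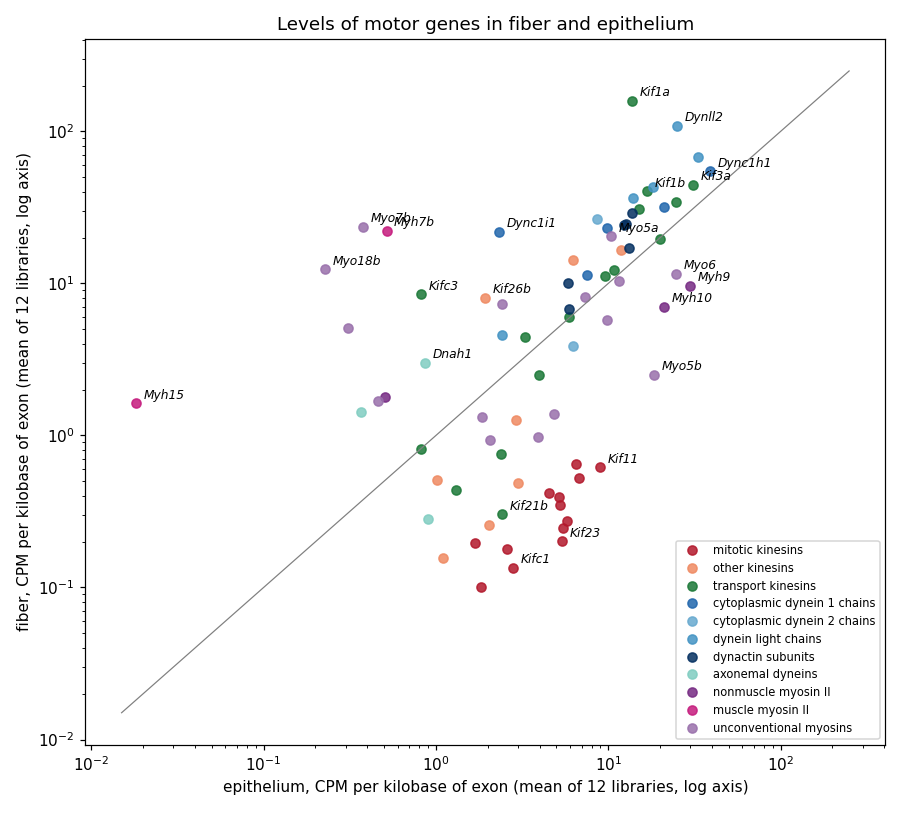
Mean CPM per kilobase of exon over 12 libraries in fiber (vertical) and epithelium (horizontal) for the motor genes with counts, with 1 gene not shown, on log axes, with the line of equal level. Kif1a stands at 160 in fiber and 13.7 in epithelium, and the mitotic kinesins lie in a group under the line.

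Tubulins form the microtubules on which kinesins and dyneins walk. Of 10 tubulin genes 5 were higher in fiber and 2 lower (median log2 1.02, against -0.03 over all tested genes), and with plain library size 2 were higher and 4 lower. Tubb2a (log2 3.30, SE 0.07), Tubb6 (2.79), Tuba1a (2.08), Tubb2b (2.08) and Tubb4b (1.77) were higher, and Tuba1c (-1.90) and Tuba1b (-1.24) were lower.

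Between E14.5 and P0.5, 7 motor genes rose in epithelium, where 10.1% of all tested genes rose, and 13 fell, where 3.21% of all tested genes fell. In fiber 5 rose (6.69% of all tested genes) and 13 fell (5.24%). The falls were mainly of mitotic kinesins in both tissues, with 11 of the 13 lower at P0.5 in epithelium and 9 of the 13 in fiber. Their median log2 change was -1.22 in epithelium, against 0.01 over all tested genes, and -1.31 in fiber, against -0.02. Of the 10 spindle partners 8 fell in epithelium and 8 in fiber, with medians of -1.22 and -1.4.

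In epithelium Kif11 had 41.7, 44.5 and 54.1 CPM at P0.5, against 101, 97.4 and 105 CPM at E14.5. Each P0.5 library was below each E14.5 library (2.16-fold lower, log2 -1.11, SE 0.11, adjusted p = 5.5e-09, edgeR), though the log2 value did not pass with the crystallins left out of the library size. Kif2c had 13.9, 15.6 and 14.8 CPM at P0.5, against 39.2, 33.5 and 41.4 CPM at E14.5, a 2.58-fold fall (log2 -1.37, SE 0.12, adjusted p = 2.41e-09, edgeR). Kif20b (log2 -1.33), Kif20a (-1.33), Kif15 (-1.3) and Kif4 (-1.29) fell by like amounts. The mean sum of the 13 genes was 620 CPM at E14.5, 378 CPM at E16.5, 338 CPM at E18.5 and 265 CPM at P0.5 in epithelium.

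In fiber Kif15 had 1.01, 2.16 and 0.315 CPM at P0.5, against 6.63, 4.39 and 9.27 CPM at E14.5. The groups did not overlap (5.37-fold lower, log2 -2.42, SE 0.31, adjusted p = 6.38e-07, edgeR), and the log2 value was -3.41 without P0.5 fiber replicate 2. Kif23 had 1.01, 1.36 and 0.42 CPM at P0.5, against 4.31, 2.52 and 3.88 CPM at E14.5 (3.75-fold lower, log2 -1.91, SE 0.28), with a value of -2.39 without that replicate. Kif2c (log2 -1.60), Kifc5b (-1.59), Kif20b (-1.52), Kifc1 (-1.5) and Kif18a (-1.31) fell as well, Kif18a by 1.86 without P0.5 fiber replicate 2. Kif20a fell by 1.13, but the call was lost without E14.5 fiber replicate 3 (-0.97), P0.5 fiber replicate 1 (-0.92) or P0.5 fiber replicate 3 (-0.91), and the value was -1.85 without P0.5 fiber replicate 2. Kif14 fell by 1.05, and by 0.70 without P0.5 fiber replicate 3. These fiber levels rest on few reads, with Kif4, Kif11, Kif18b and Kif22 not passing.

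The 7 motor genes that rose in epithelium were Kif26b, Myo16, Dync1i1, Kif5a, Myh14, Kif1a and Dnah7b. Kif26b had 64.3, 53.6 and 58.5 CPM at P0.5, against 3.72, 4.42 and 5.64 CPM at E14.5, a 12.6-fold rise with no overlap (log2 3.65, SE 0.16, adjusted p = 1.32e-14, edgeR). The step lay between E16.5 and E18.5, with 6.05, 9.78 and 8.32 CPM at E16.5 and 42.6, 34.8 and 46.4 CPM at E18.5. Myo16 had 6.19, 8.59 and 3.64 CPM at P0.5, against 0.95, 0.828 and 1.38 CPM at E14.5 (5.64-fold higher, log2 2.49, SE 0.32, adjusted p = 6.48e-07, edgeR). Myo16 showed the same step, with 1.16, 0.931 and 1.28 CPM at E16.5 and 5.92, 4.25 and 8.93 CPM at E18.5.

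Dync1i1 had 13.9, 13.2 and 20.4 CPM at P0.5, against 2.14, 3.52 and 3.72 CPM at E14.5 in epithelium (4.99-fold higher, log2 2.32, SE 0.25, adjusted p = 4.73e-08, edgeR). Kif1a had 159, 180 and 167 CPM at P0.5, against 70.1, 82.9 and 85.2 CPM at E14.5 (2.12-fold higher, log2 1.08, SE 0.10). Neither gene's groups overlapped. Myh14 (log2 1.19), Kif5a (1.21) and Dnah7b (1.01) rose by about as much. The Kif5a call was lost when P0.5 epithelium replicate 2 was left out (0.93). The Dnah7b call was lost without E14.5 epithelium replicate 1 (0.98), P0.5 epithelium replicate 1 (0.93) or P0.5 epithelium replicate 2 (0.98). It was also lost with RLE scaling (0.99) and by DESeq2 (0.99). Myh7b fell in epithelium to 2.45, 2.18 and 2.98 CPM at P0.5, against 5.86, 5.45 and 6.48 CPM at E14.5 (log2 -1.22, SE 0.20), and Myo18b fell too (-1.15, SE 0.27).

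Markers of several other tissues rose in the same epithelium libraries, though not those of every list. The 6 pigment cell markers all rose, with sums of 4.2 to 11.2 CPM in E14.5 libraries, 2.09 to 7.27 CPM in E16.5 libraries, 147 to 173 CPM in E18.5 libraries and 70.5 to 159 CPM in P0.5 libraries. Of 7 retina markers 6 rose, summing to 235 to 262 CPM at P0.5, against 118 to 123 CPM at E14.5. Of 8 neuron markers 7 rose, summing to 23.6 to 63.7 CPM at P0.5, against 7.26 to 12.8 CPM at E14.5, and no marker of these lists was at 0 in all of these epithelium libraries. Foxj1 (log2 3.73) and Rsph1 (2.61), the multiciliated cell markers, rose beside Dnah7b. Of 5 mural cell markers 2 rose (Rgs5, log2 2.58, and Acta2, 2.24), with summed means of 95.2 CPM at E14.5, 132 CPM at E16.5, 279 CPM at E18.5 and 302 CPM at P0.5. Of 5 macrophage markers Mrc1 rose (1.04), and the sums were 21.9 to 25.4 CPM at P0.5, against 12.7 to 18.0 CPM at E14.5. The 8 endothelium markers did not rise in sum, with means of 410 CPM at E14.5, 257 CPM at E16.5, 401 CPM at E18.5 and 298 CPM at P0.5. The 6 fiber markers summed to 2353 to 3776 CPM at P0.5, against 2044 to 2622 CPM at E14.5 in epithelium. The 4 lens epithelium markers had summed means of 1354 CPM at E14.5, 1373 CPM at E16.5, 2012 CPM at E18.5 and 1687 CPM at P0.5. The part of other cell types in the rises of Kif26b, Myo16, Dync1i1, Kif5a, Kif1a, Myh14 and Dnah7b was not tested.

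In fiber the motor genes that rose were Myo1h, Kifc3, Dync1i1, Myo5b and Kif26b. Kifc3 had 55.2, 58.1 and 75.8 CPM at P0.5, against 9.15, 10.2 and 7.25 CPM at E14.5, a 7.12-fold rise with no overlap (log2 2.83, SE 0.16, adjusted p = 1.01e-12, edgeR). Its values at the stages between were 29.8, 32.2 and 25.2 CPM at E16.5 and 96.3, 70.4 and 68.7 CPM at E18.5. Myo1h had 53.7, 50.1 and 1.26 CPM at P0.5, against 2.39, 1.12 and 5.4 CPM at E14.5 (log2 3.55, SE 0.67, adjusted p = 0.000102, edgeR). The groups overlapped because P0.5 fiber replicate 3 lay far below the other two, and E16.5 fiber replicate 3 was also low, at 6.72 CPM beside 23.3 and 21.0 CPM. The Myo1h log2 value was 4.12 without P0.5 fiber replicate 3 and 4.24 without E14.5 fiber replicate 3. Kctd10, which overlaps Myo1h on the opposite strand, averaged 46.8 CPM in fiber and 43.5 CPM in epithelium.

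Dync1i1 rose 2.81-fold in fiber (log2 1.49, SE 0.17, adjusted p = 1.03e-07, edgeR), with 103, 99.7 and 128 CPM at P0.5, against 36.1, 41.7 and 40.1 CPM at E14.5. Myo5b rose 2.22-fold, with 31.15, 33.99 and 38.3 CPM at P0.5, against 15.8, 13.9 and 16.8 CPM at E14.5. Kif26b rose 2.14-fold (log2 1.10), or 0.99 without P0.5 fiber replicate 3. With plain library size, which moved the median of all tested genes to -0.56, Kifc3 and Myo1h were the 2 that rose. The 4 genes other than mitotic kinesins that fell were Myo5a, Myo16, Kif21b and Myh7b. Myo5a had 188, 180 and 182 CPM at P0.5, against 420, 403 and 439 CPM at E14.5, a 2.29-fold fall with small spread (log2 -1.20, SE 0.05, adjusted p = 9.82e-15, edgeR), and its E16.5 libraries held 341 to 361 CPM and its E18.5 libraries 242 to 258 CPM. Myo16 fell 2.67-fold, with 9.37, 8.78 and 8.71 CPM at P0.5, against 22.4, 23.6 and 25.7 CPM at E14.5. Kif21b fell by 1.21 on the log2 scale and Myh7b by 1.01. The Myh7b fall was 0.88 without P0.5 fiber replicate 2, and 0.99 with RLE scaling and by DESeq2.

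**Figure D5:**
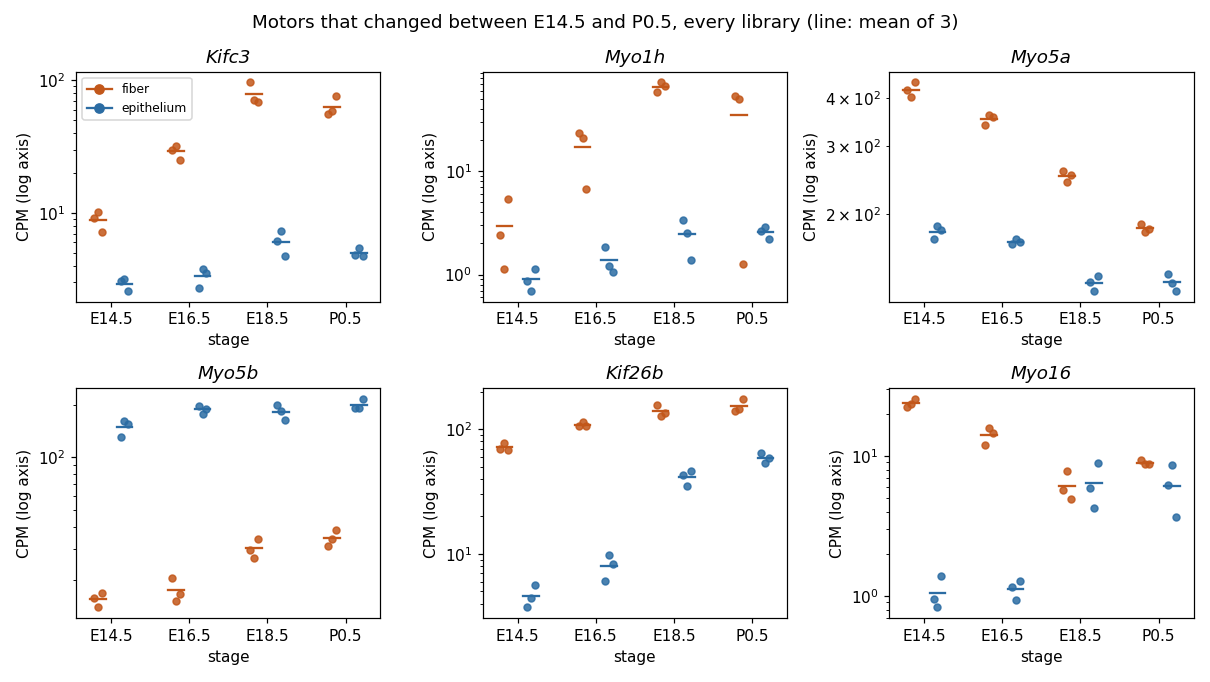
CPM of 6 motor genes by stage in every library, on log axes, with lines at the mean of 3 libraries. Kifc3 rises in fiber to 55.2 to 75.8 CPM at P0.5, Myo5a falls there to 180 to 188 CPM, Kif26b and Myo16 step up in epithelium at E18.5, and P0.5 fiber replicate 3 is the low Myo1h point at 1.26 CPM.

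The difference between fiber and epithelium itself changed from E14.5 to P0.5 for 9 motor genes, 4 upward, where 3.77% of all tested genes changed upward, and 5 downward (7.92%). Kifc3 moved apart, with a fiber minus epithelium log2 difference of 3.65 at P0.5, against 1.59 at E14.5. Myo16 moved together, with 0.55 at P0.5, which did not pass, against 4.47 at E14.5. Kif26b also moved together, with 1.38 at P0.5 against 3.94 at E14.5. Kif13b, lower in fiber, moved further apart, with -2.21 at P0.5 against -0.96 at E14.5, where it did not pass, and Dnah7b did so as well, with -2.13 at P0.5 against -1.11 at E14.5.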

How the data were processed

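Mouse lens libraries were grouped by the tissue and stage given in the labels. The authors deposited raw counts per gene, 1 column per library; per the submitters' processing notes Cufflinks 2.2.1 and Cuffdiff, HTSeq 0.6.1, TopHat2 2.0.13 and Trim Galore 0.4.1 were used on mm10, with no role given. Counting and strand settings are not given in the sources used here. Genes were kept by filterByExpr (minimum count 10, minimum total count 15) in edgeR 4.0.16 (R 4.3.3), scaled with TMM and fitted over 8 groups with the quasi-likelihood test (16 residual degrees of freedom). P-values are two-sided and adjusted by Benjamini-Hochberg over 12427 genes. CPM is relative to the TMM-scaled library size, and SE is the absolute log2 value over the root of F. Levels per kilobase use the union of all annotated exons of each gene in GENCODE M21 (GRCm38), not the length of the transcripts present. Libraries were not copies (chi-square per degree of freedom of 3.89 or more between replicates). The genes and lists were chosen with earlier results of these data known. Sample-by-sample values were given mainly for the members of each group with the largest changes and highest levels per kilobase, at a mean of at least 5 CPM in the highest group; others were named after their values were seen. The fit was tested on simulated data. Alternatives were RLE scaling, DESeq2 1.42.0, plain library size, library size without crystallins, no count filter, a replicate block, fits of 6 libraries, no fold minimum and leaving out each library. A few single-gene results are not reported here, though counts over groups include those genes.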

Additional observations from a re-analysis of the deposited data

Results flagged for a closer look

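For 9 motor genes the fiber minus epithelium difference changed between E14.5 and P0.5 by a test of that change itself (interaction contrast, edgeR). The log2 changes were -3.91 for Myo16 (adjusted p = 4.81e-08), -2.55 for Kif26b (1.26e-09), -1.25 for Kif13b (7.73e-07), -1.12 for Kif15 (0.0143) and -1.01 for Dnah7b (0.00023). They were 1.11 for Kif18b (adjusted p = 0.0108), 1.11 for Kif4 (0.000731), 1.13 for Myo18b (0.00314) and 2.06 for Kifc3 (6.16e-06). Kifc3 was higher in all 3 P0.5 fiber libraries than in any E14.5 fiber library, and Kif26b and Myo16 were higher in all 3 P0.5 epithelium libraries than in any E14.5 epithelium library.

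Single libraries decide some of these calls. Kif15 was at -0.85 without E14.5 fiber replicate 3, -0.69 without P0.5 fiber replicate 3 and -2.11 without P0.5 fiber replicate 2. Kif18b was at 0.96 without E14.5 fiber replicate 1 and 0.76 without P0.5 fiber replicate 3. Kif4 was at 0.98 without E14.5 fiber replicate 1 and 0.92 without P0.5 fiber replicate 2. Myo18b was at 0.99 without E14.5 epithelium replicate 3 or P0.5 epithelium replicate 1. Dnah7b was at -0.98 without E14.5 fiber replicate 2, -0.99 without E14.5 epithelium replicate 1, -0.95 without P0.5 fiber replicate 2, -0.94 without P0.5 epithelium replicate 1 and -0.98 without P0.5 epithelium replicate 2. Its call was also lost with RLE scaling (-0.98) and by DESeq2 (-0.98). With plain library size the median of all tested genes in this contrast was -0.68 (-0.04 with TMM), and that common shift alone brings upward changes near the threshold under it. Kif18b (0.47), Kif4 (0.47) and Myo18b (0.49) did not pass there, and Kifc3 still passed (1.42).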

How the results depend on the processing

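Scaling and the fold minimum moved the counts of motor genes. Shares of all tested genes under these other settings are not given, so the counts cannot be set against them. Plain library size gave 9 higher in fiber on average, E14.5 and E16.5 had 12 each, and E18.5 and P0.5 had 8 each. With crystallins left out 14 were higher on average, E16.5 had 15, E18.5 had 11 and P0.5 had 10. With no fold minimum 42 were higher on average, E14.5 had 39, and E18.5 and P0.5 had 42 each. Between P0.5 and E14.5 no fold minimum gave 22 risen and 29 fallen in epithelium and 26 risen and 26 fallen in fiber, and plain library size gave 2 risen and 22 fallen in fiber. The changed tissue differences were 1 upward and 24 downward with plain library size, 1 and 12 with crystallins left out, and 20 and 18 with no fold minimum. Over fits without 1 library they were 2 to 6 upward and 4 to 6 downward, with 2 upward without E14.5 fiber replicate 1. Higher transport kinesins were 2 with plain library size, 2 with crystallins left out and 9 with no fold minimum, and 8 were lower with plain library size. Plain library size lowered the fiber minus epithelium values in common, and of the genes called higher 4 turned negative, Dctn3 (-0.12), Dynlrb1 (-0.19), Kif1bp (-0.037) and Kif5c (-0.17). Genes with small positive values turned negative too, of which Kif5a (-1.09), Dctn4 (-1.03), Kif1c (-1.04), Kif3b (-1.17) and Myo18a (-1.07) then passed as lower. The cause of the other shifts was not tested. The 13 mitotic kinesins lower in fiber stayed 13 in every fit.

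Deviations of same-numbered replicates correlated weakly between fiber and epithelium, at -0.0662 to 0.221, and 13 of 24 libraries correlated best with their own number. Whether that count exceeds the count for unpaired libraries was not tested. A replicate block gave 25 higher and 29 lower in fiber on average, and 4 upward and 6 downward changes of the tissue difference. Fiber levels of mitotic kinesins rest on few reads, and intervals of single genes cover the spread between libraries only.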
